A study of Mus musculus with 5 samples.

Results

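The genes of MHC class I antigen presentation were examined in whole knee joints of mice that lack both epiphycan (Epyc) and biglycan (Bgn) and of wildtype mice. The members were the 9 genes H2-K1, H2-D1, H2-T23, B2m, Tap1, Tap2, Tapbp, Psmb8 and Psmb9, found by their platform gene symbol. A probe set is the group of short probes that together give 1 signal on an Affymetrix array. Of the 22690 probe sets in the tables, 29 carried a member's symbol, 24 of them with no other symbol and 5 with several. Of the 9 members 8 had at least 1 probe set of their own, while H2-T23 was found only on probe sets that also carry the symbol H2-T-ps. The 5 probe sets with several symbols are described apart.

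There were 3 double-null pools and 2 wildtype pools. All mice were males, 3 months old, of a hybrid strain given as C57/Bl6:129. RNA of 6 tibio-femoral joints, taken from 3 mice, was pooled for each array. Replicates are therefore pools, and the spread between single mice was not measured. The 5 arrays came in 2 value tables: double-null pool 3 and wildtype pool 2 stood in 1 of them (table A), and double-null pools 1 and 2 with wildtype pool 1 in the other (table B). Each table belongs to a platform record of its own, and the sources used here do not say what sets the 2 records apart.

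MHC class I molecules show peptides from inside the cell to cytotoxic T cells and natural killer cells. Proteasomes cut cellular proteins into peptides, the TAP transporter carries them into the endoplasmic reticulum, and a loading complex places them on a heavy chain that is paired with the light chain beta-2-microglobulin. Nearly all nucleated cells make these molecules, blood-forming and immune cells more than most, and interferons raise the whole set. A knee joint contains bone marrow beside cartilage, bone, tendon and synovium, so the signal of these genes is a sum over many cell types. In such tissue, fewer cells of a type and less RNA per cell cannot be told apart.

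The promoters of the classical heavy chains and of the light chain are shown first, since the members share known inputs from interferon and from NF-kappa-B. They are RefSeq sequences of the GRCm38.p6 build, from 250 bases before to 50 after the start site, and 8 of the 9 members matched an entry. Capitals mark matches, on either strand, to the interferon response element core (GAANNGAAA or GAAANNGAA) or to the NF-kappa-B site (GGGNNTTCC or GGNNTTTCC). The H2-K1 window is chr17:34000298-34000597 on the minus strand, the H2-D1 window chr17:35262844-35263143 on the plus strand and the B2m window chr2:122147437-122147736 on the plus strand.
H2-K1: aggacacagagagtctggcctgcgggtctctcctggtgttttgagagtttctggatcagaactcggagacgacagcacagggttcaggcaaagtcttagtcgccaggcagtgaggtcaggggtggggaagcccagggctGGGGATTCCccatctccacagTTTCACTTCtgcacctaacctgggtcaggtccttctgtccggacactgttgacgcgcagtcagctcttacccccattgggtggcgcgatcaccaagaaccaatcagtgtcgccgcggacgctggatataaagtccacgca
H2-D1: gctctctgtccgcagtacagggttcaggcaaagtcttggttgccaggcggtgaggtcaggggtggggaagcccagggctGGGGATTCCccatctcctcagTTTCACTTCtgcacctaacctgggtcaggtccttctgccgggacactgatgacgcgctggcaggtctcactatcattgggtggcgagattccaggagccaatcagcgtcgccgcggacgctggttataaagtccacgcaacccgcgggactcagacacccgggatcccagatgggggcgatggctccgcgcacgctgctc
B2m: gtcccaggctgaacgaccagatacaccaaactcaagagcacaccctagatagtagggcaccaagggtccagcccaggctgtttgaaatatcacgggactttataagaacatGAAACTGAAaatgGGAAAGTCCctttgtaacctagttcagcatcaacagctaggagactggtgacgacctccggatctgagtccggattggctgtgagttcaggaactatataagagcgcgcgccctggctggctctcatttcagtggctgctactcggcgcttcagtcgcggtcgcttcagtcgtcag

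The H2-K1 and H2-D1 windows are near copies of each other, with 214 identical bases of 239 aligned (89.5%). Both hold the same NF-kappa-B match followed by the same interferon match. Counted from the start site of each window, the NF-kappa-B match lies at -111 to -103 in H2-K1 and at -171 to -163 in H2-D1. The interferon match lies at -90 to -82 in H2-K1 and at -150 to -142 in H2-D1. H2-K1 had 2 entries, and the whole window of the one used lies inside the gene's listed span, which ends at 34000619. Its start site is thus not the gene's outer end, so the distances in H2-K1 and H2-D1 are not comparable. In B2m the order is the other way round, with the interferon match at -139 to -131 and the NF-kappa-B match at -126 to -118. Of the 8 member promoters, 4 held an interferon core in either form and 3 an NF-kappa-B site in either form. Of 32817 promoter windows of the same length in the RefSeq table, 14.8% held the first and 9.83% the second. The motifs were chosen after the member promoters had been read, and H2-K1 and H2-D1 are near copies. The counts therefore cannot serve as a test of enrichment. The fourth interferon match was in H2-T23. The gamma-activated site TTCNNNGAA, another interferon motif, matched in Psmb8 only of these 8, at -97 to -89, and in 8.29% of all windows. It reads the same on both strands, and the 2 forms of the other motifs can match overlapping bases. A match is a run of letters and not a measured binding site.

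Tap1 and Psmb9 lie head to head on chromosome 17, with start sites 226 bases apart, so 275 bases are common to their 2 windows. The Tap1 window, chr17:34187306-34187605 on the plus strand, is shown because both genes start from it, and it holds none of the motifs searched.
Tap1: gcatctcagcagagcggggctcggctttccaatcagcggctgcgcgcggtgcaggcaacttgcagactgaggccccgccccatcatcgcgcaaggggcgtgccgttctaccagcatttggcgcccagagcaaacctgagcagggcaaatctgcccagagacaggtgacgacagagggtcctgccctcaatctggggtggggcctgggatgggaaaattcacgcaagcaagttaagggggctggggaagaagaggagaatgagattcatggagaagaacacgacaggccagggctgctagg

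The deposited signals were on a linear scale with a 2% trimmed mean near 250.1 on each array. The arrays carry 27 controls against Bacillus transcripts, and the brightest of these read from 27.5 to 63.5 over the arrays. The targeted genes followed the labels: the 3 Bgn probe sets read 7.05 to 224 in double-null pools and 2003 to 4063 in wildtype pools, and the single Epyc probe set 1.29 to 10.8 in double-null and 78.8 and 91.2 in wildtype pools. A constant of 32 was added to each signal before log2 and quantile normalisation. Each group difference is a log2 fold change of these values, positive where the double-null pools were higher, from a limma fit with the table as a term. They were adjusted by Benjamini-Hochberg over 22626 probe sets, and a call is an adjusted p under 0.05. Only 6 probe sets were called, 5 lower (0.0221%) and 1 higher (0.00442%). The 5 lower were the 3 of Bgn, 1 of the peroxiredoxin gene Prdx2 and 1 with no symbol, and the higher one was of Rpgrip1. The Epyc probe set was not called (limma adjusted p = 0.16), and its mean over all arrays was below the highest control.

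None of the 24 member probe sets was called in either direction (limma, lowest adjusted p = 0.87), while 4 had an unadjusted p under 0.05, all with lower values in the double-null pools. The share of all probe sets with a lower value at that unadjusted level was 2.41%. Of the 24, 16 had a mean signal over the 5 arrays above the highest Bacillus control on any array, at means from 170.4 to 6132, and these are called bright below. All 16 of these had negative log2 fold changes, from -0.52 to -0.083, with a median of -0.30, or 0.815-fold. Among the 14796 probe sets above the same level, 50.7% had negative values and the median was -0.0041. The 16 probe sets were chosen by their mean over all arrays, and each of them lay above the highest control of its own array on all 5 arrays. The other 8, at means from 5.79 to 31.6, had 4 negative and 4 positive values and a median of -0.0047. Over all 24 the median was -0.18, against -0.0036 over all probe sets.

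**Figure D1:**
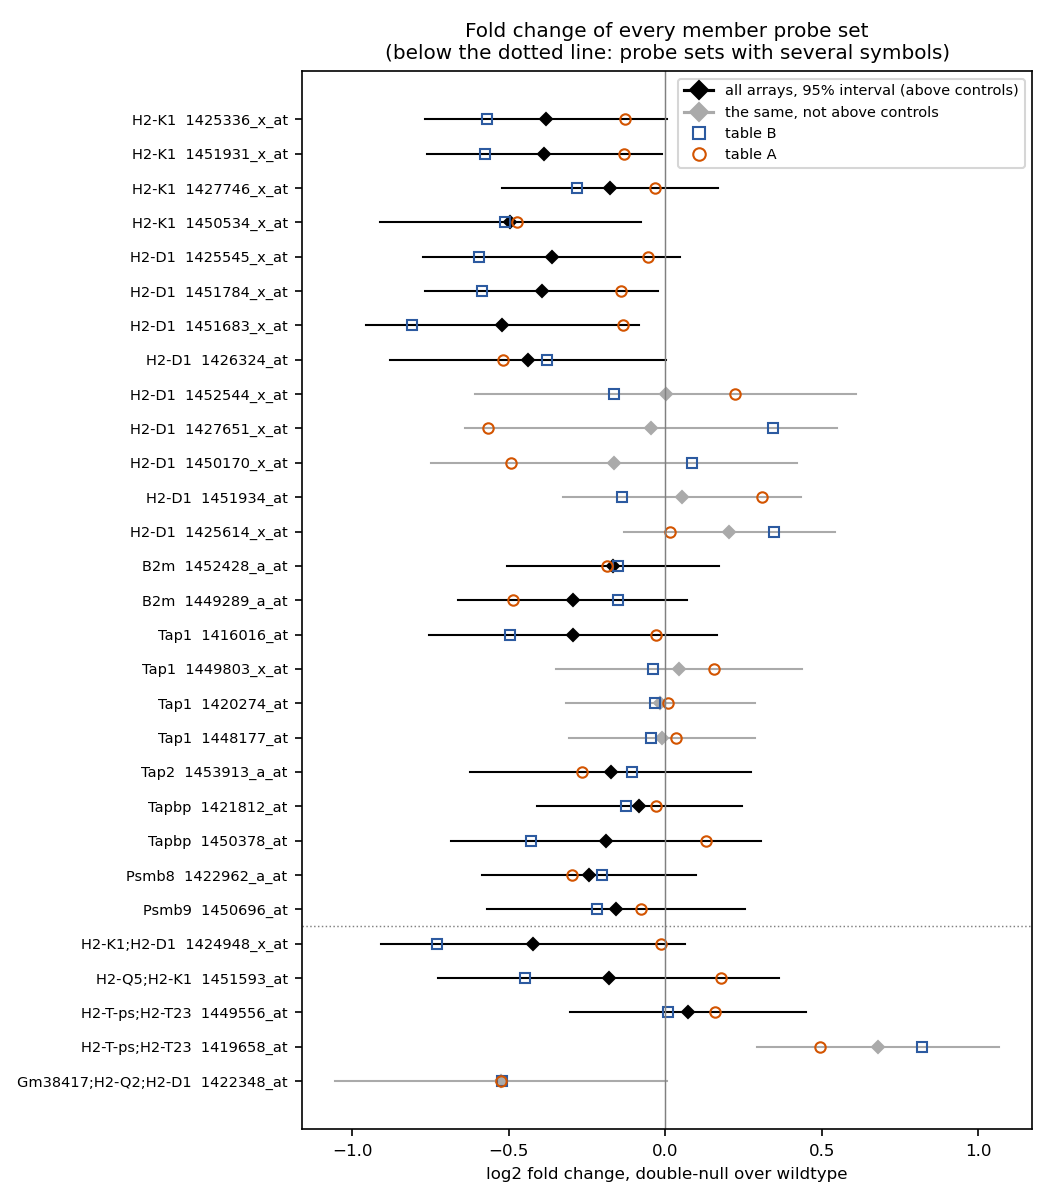
Log2 fold change of all 29 member probe sets (horizontal axis, double-null over wildtype), with 95% intervals from the limma fit, black for probe sets above the controls and grey for the others. Open squares give the difference within table B and open circles that within table A. All 16 black diamonds above the dotted line lie left of 0, between -0.52 and -0.083, and most of their intervals reach past 0.

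On the normalised scale every double-null array lay below both wildtype arrays for 10 of the 16 probe sets, where 9.64% of the 14796 probe sets above the controls showed that order. Over all 24 member probe sets the count was also 10, against 9.88% of all probe sets. On the deposited scale 8 were apart, all of them among the 16, against 11.0% of all probe sets and 10.9% of those above the controls. The 4 with an unadjusted p under 0.05 were all among the 16, where the share of lower values at that level among the 14796 was 1.86%. All 4 were of H2-K1 and H2-D1, and 7 of the 16 carry probes that also match similar transcripts, so the probe sets do not count as separate observations. By the brightest probe set of each gene, all 8 genes had negative values with a median of -0.21. Of the 8, 4 were apart on the normalised scale and 3 on the deposited scale. At this 1 probe set per gene, 0 of 8 had an unadjusted p under 0.05 (limma, lowest 0.052).

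H2-K1 encodes the K heavy chain, a classical class I molecule that presents peptides to CD8+ T cells. All 4 of its probe sets end in _x_at, the array maker's mark for probes that also match similar transcripts. The brightest read 3146, 2729 and 3274 in double-null pools 1 to 3, against 4635 and 3456 in wildtype pools 1 and 2. Wildtype pool 1 stood well above the rest, while wildtype pool 2 lay just above the highest double-null pool. Its log2 fold change was -0.38 ± 0.16 (SE), with a 95% interval from -0.77 to 0.0054 (limma adjusted p = 0.92).

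A second H2-K1 probe set repeated that pattern, at 2302, 2470 and 2372 in the double-null pools against 3636 and 2553 in the wildtype pools (-0.39 ± 0.16 SE). On the dimmest H2-K1 probe set both wildtype pools lay well above the double-null pools. It read 285, 222 and 291 in double-null pools, against 377 and 415 in wildtype pools, a log2 fold change of -0.49 ± 0.17 SE (adjusted p = 0.88). The remaining one overlapped between the groups, at 486, 475 and 631 in double-null pools and 587 and 651 in wildtype pools (-0.18). All 4 probe sets of H2-K1 thus had negative values, and the groups were apart on 3.

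H2-D1 encodes the D heavy chain, the other classical molecule. It had 9 probe sets, 7 of them of the _x_at kind, and only 4 lay above the controls. The brightest read 2945, 3201 and 3225 in double-null pools, against 4870 and 3276 in wildtype pools (-0.36 ± 0.17 SE). As with H2-K1, wildtype pool 1 was far above and wildtype pool 2 barely above the double-null pools. The lowest fold change of all 24 member probe sets was on an H2-D1 probe set of middle signal, which read 923, 883 and 1044 in double-null pools, against 1536 and 1161 in wildtype pools (-0.52 ± 0.18 SE, limma unadjusted p = 0.026, adjusted p = 0.87).

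The only H2-D1 probe set above the controls that is not of the _x_at kind was also its dimmest. It read 324, 240 and 299 in double-null pools, against 377 and 439 in wildtype pools, and here wildtype pool 2 was the higher of the pair (-0.44 ± 0.18 SE). The groups were apart on all 4 bright probe sets. The 5 dim ones read between 2.33 and 50.1 on any array, with fold changes from -0.16 to 0.21 and a median of 0.0015. They carry the same gene symbol and showed almost no signal on the same arrays, so an average over all probe sets of H2-D1 would mix measured and unmeasured values.

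B2m encodes beta-2-microglobulin, the light chain that every class I heavy chain needs to reach the cell surface, and lies on chromosome 2, apart from the other members on chromosome 17. Its brighter probe set read 6038, 5939 and 5461 in double-null pools, against 7385 and 5839 in wildtype pools. The second read 4188, 3774 and 3140, against 4655 and 4159. On the deposited scale the groups overlapped on both, since wildtype pool 2 lay among the double-null pools. After normalisation they were apart, with log2 fold changes of -0.17 ± 0.14 and -0.30 ± 0.15 (SE), both with intervals that included 0.

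**Figure D2:**
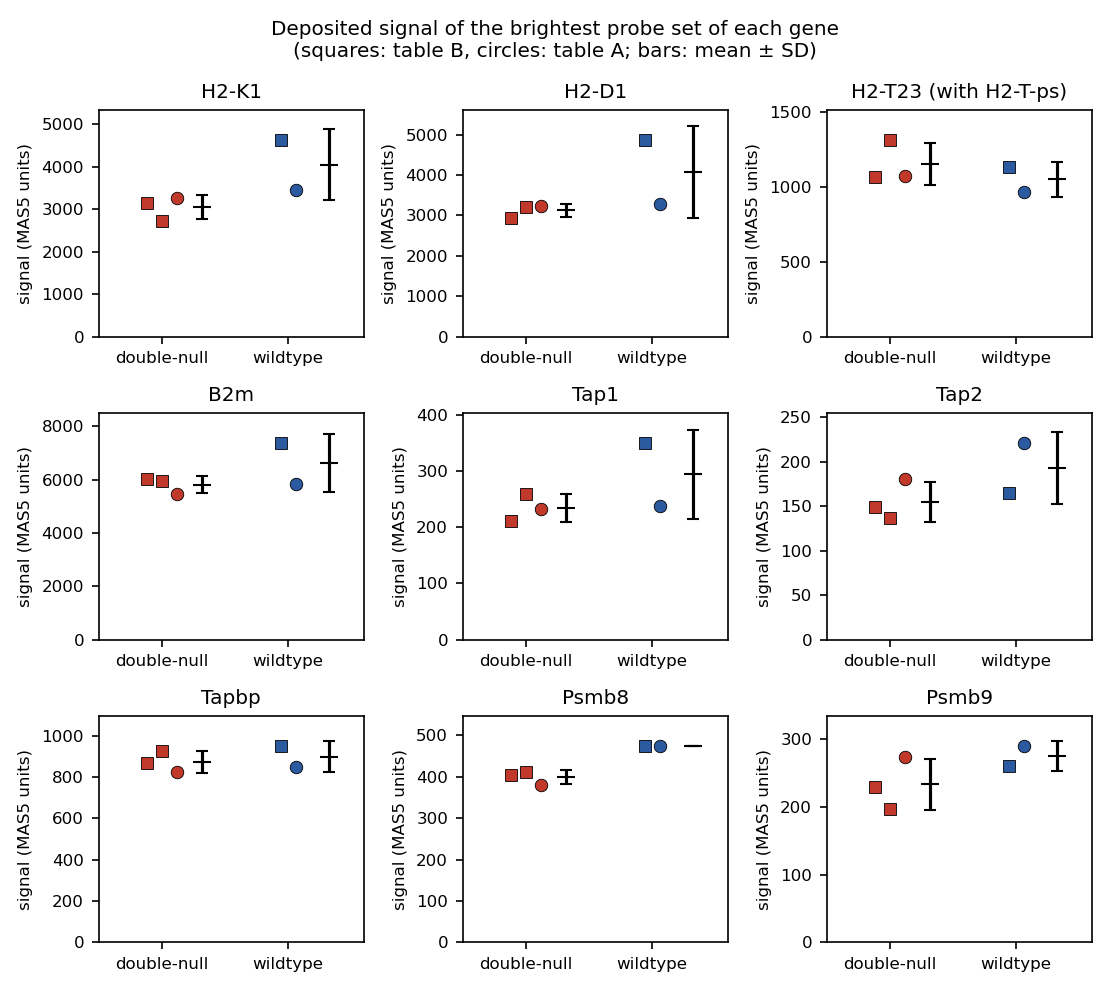
Deposited signal (vertical axes, MAS5 units from 0) of the brightest probe set of each member, for the 3 double-null pools (red) and the 2 wildtype pools (blue); squares are table B, circles table A, and bars the mean ± SD. Wildtype pool 1 is the highest point for H2-K1, H2-D1, B2m, Tap1 and Tapbp. Both wildtype pools lie above all double-null pools for H2-K1, H2-D1 and Psmb8, while H2-T23 overlaps.

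Tap1 and Tap2 encode the subunits of the peptide transporter. Tap1 had 4 probe sets, of which 1 lay above the controls. It read 211, 260 and 233 in double-null pools, against 351 and 238 in wildtype pools, so wildtype pool 2 lay inside the double-null range (-0.30 ± 0.19 SE). The 3 other Tap1 probe sets read 1.68 to 25.9 and had fold changes between -0.016 and 0.045. Tap2 had a single probe set, at 149, 136 and 180 in double-null pools against 165 and 221 in wildtype pools (-0.17 ± 0.19 SE). Here the order within the wildtype pair was reversed, with pool 2 the higher, and the groups overlapped.

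Tapbp encodes tapasin, which holds empty class I molecules next to the transporter. Its brighter probe set read 870, 925 and 822 in double-null pools and 951 and 846 in wildtype pools, the smallest difference among the 16 (-0.083 ± 0.14 SE). The other read 382, 282 and 442 against 458 and 404, at -0.19 ± 0.21 SE. Both overlapped between the groups, and on the second the difference was 0.13 within table A and -0.43 within table B.

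Psmb8 and Psmb9 encode 2 catalytic subunits that replace the standard ones in the immunoproteasome, the form of the proteasome made in immune cells and after interferon. Psmb8 read 405, 412 and 379 in double-null pools, against 475 and 475 in wildtype pools. All 3 double-null pools were lower, by similar amounts on both tables (-0.30 on table A and -0.20 on table B). The fitted value was -0.24 ± 0.14 SE, with an interval from -0.59 to 0.099 (limma adjusted p = 0.93). Psmb9 read 229, 198 and 273 in double-null pools, against 260 and 291 in wildtype pools, with overlap (-0.16 ± 0.17 SE).

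The non-classical molecule H2-T23, known as Qa-1, presents a narrow set of leader peptides and is a ligand of natural killer cell receptors. Its 2 probe sets are shared with H2-T-ps in the platform annotation. The bright one read 1068, 1312 and 1071 in double-null pools and 1133 and 967 in wildtype pools, with overlap. Its log2 fold change was 0.073 ± 0.16 SE, with an interval from -0.30 to 0.45, and -0.0023 without double-null pool 2. The dim one read 24.02, 30.6 and 26.9 in double-null pools, against 2.64 and 8.30 in wildtype pools, which are all below the highest control of their own array. Its fitted fold change of 0.68 (unadjusted p = 0.0045, adjusted p = 0.65) moved between 0.22 and 2.40 with the processing and is no measured size. Whether H2-T23 differs from H2-K1 and H2-D1 in its response was not tested.

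The 3 remaining shared probe sets were of the heavy chains. The one carrying H2-K1 and H2-D1 read 287, 262 and 457 in double-null pools and 480 and 465 in wildtype pools (-0.42 ± 0.20 SE), so double-null pool 3 was close to the wildtype pools. The one carrying H2-Q5 and H2-K1 read 130, 110 and 222 against 185 and 194, and overlapped (-0.18). The one carrying Gm38417, H2-Q2 and H2-D1 read 2.97 to 23.2 in double-null and 17.8 and 37.7 in wildtype pools, not above the controls.

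The 2 tables gave separate differences. Over the 8 bright probe sets of H2-K1 and H2-D1 the median difference was -0.13 within table A (double-null pool 3 against wildtype pool 2) and -0.57 within table B (double-null pools 1 and 2 against wildtype pool 1), and all 8 were negative on both. Over the 8 bright probe sets of B2m, Tap1, Tap2, Tapbp, Psmb8 and Psmb9 it was -0.13 within table A, with 7 of 8 negative, and -0.18 within table B, with 8 of 8. The difference between the tables was tested per probe set in a model with the product of genotype and table. Of its 4 arms, 3 are single pools, and the gap between double-null pools 1 and 2 is its 1 residual degree of freedom, so the single pools are assumed to vary like that pair. A single member probe set, the H2-D1 one with the lowest fold change, had an unadjusted p under 0.05 there, where 6.11% of all probe sets did (limma adjusted p = 0.79 for the H2-D1 probe set). After adjustment 0 of 22626 probe sets passed in limma (0.0%).

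**Figure D3:**
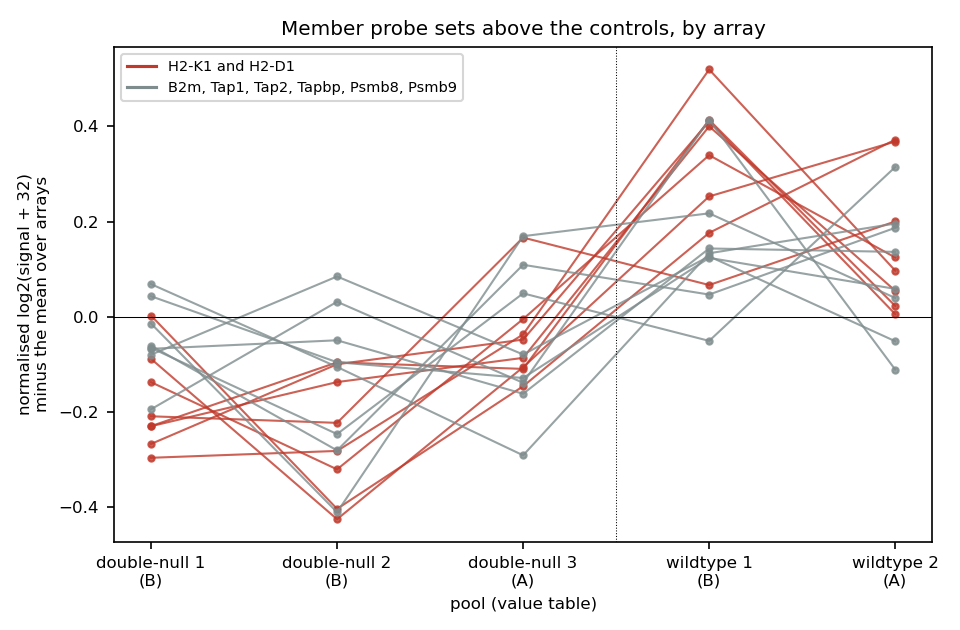
Normalised log2(signal + 32) of the 16 member probe sets above the controls, each minus its own mean over the arrays (vertical axis), for the 5 pools with their value table (horizontal axis); H2-K1 and H2-D1 are red, the other members grey. No probe set has its highest value in a double-null pool, and the red lines peak in wildtype pool 1 or in wildtype pool 2.

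The highest value of each bright probe set was in a wildtype pool, more often in wildtype pool 1. Of the 16 probe sets 10 were highest in wildtype pool 1, 6 in wildtype pool 2 and 0 in a double-null pool. Among all probe sets above the controls 23.2% were highest in wildtype pool 1 and 18.1% in wildtype pool 2. Without wildtype pool 1 the median over the 16 was -0.13, with 15 of 16 negative, and without wildtype pool 2 it was -0.41, with all 16 negative. The heavy chain median was likewise -0.13 and -0.59. With the table as a term, the first of these is the contrast of table A and the second that of table B, so the wildtype pool, the double-null pools and the table cannot be told apart in them. In both, 0 of 24 member probe sets were called.

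The probe sets of a gene differed in how closely they followed each other. Likeness was measured as the root mean square gap between 2 profiles over the 5 arrays, each centred on its own mean, in log2 units. The gap was between 0.037 and 0.27 for the 4 bright H2-D1 probe sets, 0.13 to 0.23 for the 4 of H2-K1, 0.096 for the 2 of B2m and 0.26 for the 2 of Tapbp. The 3 genes outside all lists whose profile was nearest to the median profile of the 8 members were Nup210, a nuclear pore membrane protein, Babam2, a subunit of deubiquitinating complexes, and Psmc4, an ATPase of the proteasome cap. Their gaps were 0.026, 0.027 and 0.028, against a median of 0.20 over 7925 genes. They were picked as the smallest gaps, so lying below that median shows no special likeness. The members' median profile itself ran only from -0.098 in double-null pool 2 to 0.14 in wildtype pool 1.

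Other genes of the pathway were not called. Over 5 lists 66 genes were measured by a probe set of their own, and 0 were called, with 0 at an unadjusted p under 0.05 (limma), 40 negative and 26 positive values. The list of other class I and class I-like heavy chains had a median of -0.038 over 11 genes. It also holds H2-Ke6, which does not encode a heavy chain and whose own value is that median. H2-T3 read 169, 228 and 240 in double-null pools against 363 and 216 in wildtype pools (-0.37), and its dimmer probe set was at -0.057. Fcgrt, the neonatal Fc receptor that also pairs with beta-2-microglobulin, read 517, 534 and 676 against 526 and 505 (0.17). H2-Q2 was not above the controls (-0.32).

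The loading chaperones and trimming enzymes had a median of 0.048 over 12 genes. Hspa5, the main chaperone of the endoplasmic reticulum, read 3307, 3710 and 2290 in double-null pools and 2221 and 2228 in wildtype pools (0.36), while its other probe set overlapped (0.060). Lower values were seen for Tapbpl, a tapasin-like peptide editor (37.7, 34.7 and 80.7 against 84.7 and 99.98, -0.50). Its double-null mean of 51.0 was below the highest control of 63.5. The dimmer Tapbpl probe set, not above the controls, went the other way (0.33). Erap1, which trims peptides in the endoplasmic reticulum, was lower too (148, 161 and 107 against 171 and 169, -0.27). The partners of the immunoproteasome, with the standard catalytic subunits, had a median of -0.085 over 7 genes. Psmb5, the standard subunit that Psmb8 replaces, was at -0.22, and the proteasome activator gene Psme1 at -0.12. For Psme3, another activator gene, the brightest probe set gave -0.44 and a second one above the controls 0.13.

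Regulators of class I expression had a median of -0.045 over 15 genes, 12 of them negative. Jak1, a kinase of interferon receptors, read 1397, 1619 and 1530 in double-null pools and 1807 and 1791 in wildtype pools (-0.27), and its groups were apart, while its 2 dimmer probe sets overlapped (-0.13 and -0.12). The receptor subunit genes Ifnar2 and Ifngr1 were at -0.52 and -0.28, both with overlap after normalisation, and a dimmer Ifnar2 probe set was at -0.21. The interferon-induced genes outside the presentation pathway had a median of -0.053 over 21 genes, with 12 negative and 9 positive values. Among them Irf7, which drives type I interferon genes, was at -0.41, Ifi35 at -0.33 and the GTPase gene Gbp3 at 0.51. Gbp3 was near the control level, at 83.1, 58.6 and 97.2 in double-null pools against 47.4 and 53.5 in wildtype pools. Its wildtype mean of 50.5 was below the highest control of 63.5. Mx1, Mx2, Cxcl9, Cxcl10 and Bst2 were not above the controls.

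**Figure D4:**
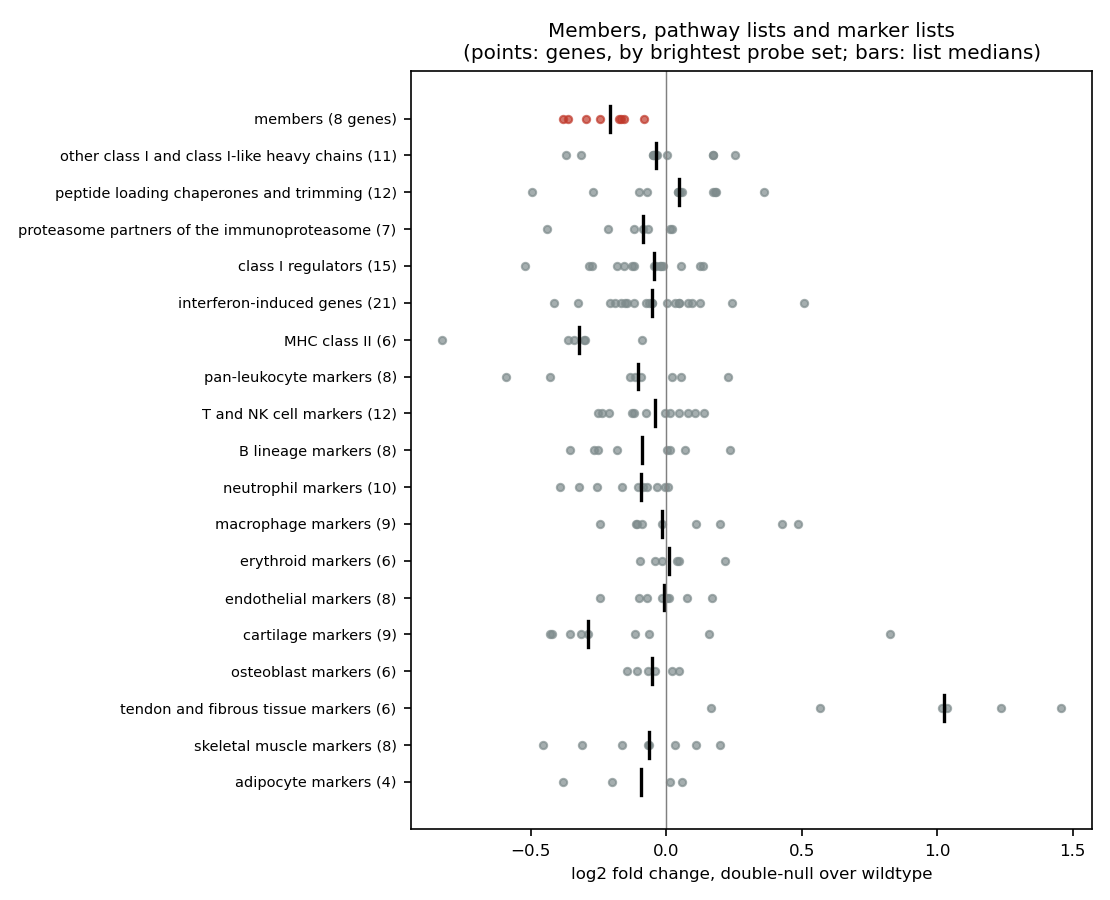
Log2 fold change (horizontal axis, double-null over wildtype) of the 8 members (red, brightest probe set each) and of the genes of each pathway and marker list (grey, brightest probe set each); black bars are medians, and numbers of genes are in brackets. The members' median is -0.21, the MHC class II median -0.32, and the medians of the 5 pathway lists lie between -0.085 and 0.048.

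Markers of blood-forming cells, which are rich in class I message, were set beside the members, and their part in the result was not tested. The 8 pan-leukocyte markers summed to signals between 15396 and 18838 in the double-null pools, against 17430 and 20888 in the wildtype pools. The sums overlapped, and the median log2 fold change was -0.10, with 5 of 8 negative. Cd52, a surface glycoprotein of lymphocytes and monocytes, read 2187, 2300 and 1736 against 3289 and 2759 (-0.59, adjusted p = 0.58). The GTPase gene Rac2 was at -0.43, with its groups apart too. The 3 positive markers of this list were Laptm5 (0.23), Lcp1 (0.054) and Cd53 (0.021). MHC class II genes, a mark of antigen-presenting cells, had 6 of 6 negative values and a median of -0.32, the regulator Ciita not above the controls. The 3 probe sets of H2-Ab1 disagreed in size, at -0.83 on the brightest, -0.44 and -0.040, and the last overlapped between the groups. H2-Aa was at -0.30 on its brightest and -0.76 on its other probe set, and H2-DMa at -0.34. The sums of the list were 5718 to 6901 in double-null pools against 10121 in wildtype pool 1 and 6627 in wildtype pool 2.

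The sums of the other marrow lists overlapped between the groups, except that of the B lineage. There all 3 double-null pools were lower, the highest of them only narrowly. Neutrophil markers summed to 91145 to 128372 in double-null pools against 92918 and 146955 in wildtype pools (median fold change -0.095, 9 of 10 negative). Macrophage markers were at 15230 to 20129 against 14956 and 21223 (-0.017), and erythroid markers at 21734 to 22922 against 19408 and 23105 (0.011). Of the macrophage markers 5 were negative and 4 positive. Among the latter, Mrc1 (0.43) and Cd14 (0.49) were higher in every double-null pool than in both wildtype pools. B lineage markers were at 2573 to 3257 against 3270 and 3361 (-0.089, 4 of 8 negative), with Pax5 not above the controls. For 0 of these 8 genes were the groups apart. T and NK cell markers were at 903 to 1189 against 1182 and 1309 (-0.040). The defining T cell markers Cd3d, Cd3e, Cd3g, Cd4, Cd8a, Cd8b1 and Cd247 were not above the controls.

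The markers of the joint tissues were above the controls, except Matn1 of cartilage, Scx of tendon, and Lep and Cidec of fat. Cartilage markers had a median of -0.29 over 9 genes (11492 to 13037 in double-null pools against 8613 and 17342 in wildtype pools). That median was 0.15 within table A and -0.54 within table B. Of the 9 genes 7 were negative and 2 positive, with Comp at 0.83. Tendon and fibrous tissue markers had a median of 1.03 over 6 genes (11146 to 13655 against 4999 and 5590). Medians were -0.054 for osteoblast markers, -0.065 for skeletal muscle, -0.0072 for endothelium and -0.094 for adipocytes. Of the 94 measured marker genes of the 12 lists 0 were called, while 5 lower and 6 higher had an unadjusted p under 0.05 (limma). Of the 6 higher ones, 4 were of the tendon and fibrous tissue list. Among all 22626 probe sets, 546 (2.41%) were lower and 663 higher at that level. With 3 pools against 2 there are 10 arrangements of the labels if the tables are ignored. An exact permutation test of a single gene could then not go below p = 0.1. Within tables, as in the fit, there are fewer arrangements, so the limit would be higher.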

How the data were processed

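Joint RNA was biotin-labelled for Affymetrix hybridisation, per the labels' protocols. The deposited values are linear signal intensities, 1 per probe set; the submitters' processing notes name MAS5, with version and scaling goal not given in the sources used here. There was 1 table per platform record. The 64 array controls among 22690 probe sets were left out, and Entrez numbers linked symbols to GRCm38.p6 gene names. The number of arrays limits the precision.

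Values were transformed as log2(signal + 32), quantile normalised over the 5 arrays and fitted by probe set with limma 3.58.1 in R 4.3.3: table as a term, two-sided, prior variance following intensity, no intensity filter, 2 residual and 4.59 prior degrees of freedom. The code was tested on simulated data. The labels do not say more of the pools, so p-values measure only the spread between them. The members and gene lists were chosen with earlier results of these data known, and the motifs after the promoters had been read. The rule for named genes took the 3 smallest p of each pathway list and MHC class II and up to 2 of each marker list, by the brightest probe set. Genes without a probe set of their own are not used here. Whether replicate numbers pair the pools was left undecided. Same-numbered pools had correlations of 0.012 and -0.17 between deviations from their group means, across probe sets. With 2 wildtype pools these deviations mirror each other, and the 2 also differ by table, so the correlations cannot decide it.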

Additional observations from a re-analysis of the deposited data

How the results depend on the processing

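No member probe set was called under any of 17 alternatives, and 15 of the 16 bright ones kept a negative sign in all those they entered; the dimmer one of Tapbp was positive (0.13) without wildtype pool 1. The members' median of -0.18 was -0.30 with an intensity filter at the 40th or the 60th percentile and over the bright probe sets only (added after seeing the data), since dim probe sets near 0 drop out. It was -0.22 without the table term, and from -0.21 to -0.10 with 1 pool left out, the weakest without wildtype pool 1. The count of all probe sets called, 6 in the fit given, was 19 and 23 with the filters at the 40th and 60th percentile, where fewer are tested, and 2 and 1 with 1 value per gene (brightest, mean). It was 0 on table B alone (1782 at an unadjusted p under 0.05, limma) and 0 to 5 with 1 pool left out: 0 without wildtype pool 1 (1113 at an unadjusted p under 0.05, limma), without double-null pool 3 (1770) and also when wildtype pool 2 was dropped (1782). With the replicate number as a block in place of the table term (replicate block), 3 were called and the members' median was -0.25, and no member call changed. Without double-null pool 3, or without wildtype pool 2, the contrast is that of table B, and without wildtype pool 1 it is that of table A, 1 pool against 1, so these 3 are not separate checks. Dim probe sets, 8 of 24, limit what can be said of them at this signal.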
